A study of Arabidopsis thaliana with 12 samples.

Results

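The genes described here are 6 of the flavonoid pathway of Arabidopsis thaliana, the pathway that makes anthocyanin pigments and flavonols. They were taken by name: DFR, UF3GT, AT4G14090, AT5MAT, AT1G06000 and AT1G23390. Each had 1 probe set that the platform annotation assigns to that gene alone, so they are 6 of the 13350 genes named by such a probe set. The list was drawn up with earlier results of the same arrays in view, and its genes are taken as chosen by their intensities with and without sucrose. AT1G06000 may have been chosen by its difference between the lines too, since it was 1 of 8 probe sets, 0.0581% of those tested, past the threshold for an unequal sucrose effect. Those values are given below as a description.

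RNA of whole seedlings was measured on 12 Affymetrix ATH1 arrays, with 3 arrays in each of 4 groups. Col-7 untreated and Col-7 sucrose were seedlings of the col-7 ecotype without a named modification, and acn1-2 untreated and acn1-2 sucrose were the line written ACN1-2 in the labels, which is col-7 with a T-DNA insertion in At3g16910. The labels name 1 insertion line and no other allele or restored line. At3g16910 encodes ACN1, an enzyme that activates acetate, and it had 0 probe sets under its name in the annotation used here, so the insertion was not checked by its own transcript. After 4 days at 4 °C in the dark, seedlings of all groups were raised in continual light at 20 °C to growth stage 0.70. The agar held MS salts and had a pH of 5.7. The sucrose groups received 100 mM sucrose. The series describes 3 pools of 1000 seedlings. The labels do not say that the arrays of a group came from separate cultures, so a p below speaks of the spread among these arrays alone, which could be technical. By its title, the study concerned links between the control of transcript levels by organic acids and by carbohydrates. The comparisons were sucrose against untreated in each line, acn1-2 against Col-7 in each medium, and the difference between the lines in their sucrose effect.

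Flavonoids are built from phenylpropanoid precursors. Chalcone synthase makes the first flavonoid skeleton, and the pathway then branches at the dihydroflavonols, which flavonol synthase turns into flavonols and DFR turns towards anthocyanins. Anthocyanidins become stable pigments once sugars and acyl groups are attached, and flavonols are stored as glycosides. In Arabidopsis seedlings sucrose is a well-known inducer of anthocyanin synthesis.

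The values are intensities on a linear scale, which the authors had scaled to a 2% trimmed mean of about 100.0 on each array. An intensity of 14.4, the 25th percentile of all values, served as a floor. Values under it were raised to it before log2 values were taken, since differences among them carry little information. Median intensities ran from 41.0 to 47.2 between arrays, and precision is limited by there being 3 arrays a group. The arrays acn1-2 untreated replicate 3 and Col-7 sucrose replicate 3 stood apart most. Over all tested probe sets, their log2 deviations from the mean of the group had an SD of 0.245 and 0.203, against 0.115 to 0.19 for the remaining arrays. Scanner background varied most in acn1-2 untreated, at 69.28, 122.24 and 100.42 on replicates 1, 2 and 3. On the arrays of the other groups it was 94.17 to 110.82. Of the markers of green tissue, 2 of 10 listed genes had a named probe set, and of those of roots, 3 of 8. The green markers RCA and PRK and the root markers EXPA7, EXPA18 and AT5G66390 were above the floor on all 12 arrays. Of the 8 embryo and seed markers, AT3G01570 and PAP85 had a named probe set and read above the floor on all 12 arrays.

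The first comparison asked what sucrose did to these genes. In both lines DFR, UF3GT, AT4G14090, AT5MAT and AT1G06000 were higher with sucrose and AT1G23390 was lower, and in none of the 6 did the sucrose arrays overlap the untreated arrays of the same line. All 6 differed more than 2-fold in each line. Of all 13764 tested probe sets, 10.4% did so in Col-7 and 12.9% in acn1-2. Sucrose arrays lay above all untreated arrays for 31.3% of them in Col-7 and 30.3% in acn1-2, and below for 29.7% and 32.5%. This contrast chose most of the genes, so nothing is read from these counts. In whole seedlings, more RNA per cell and more cells that express a gene cannot be told apart.

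**Figure D1:**
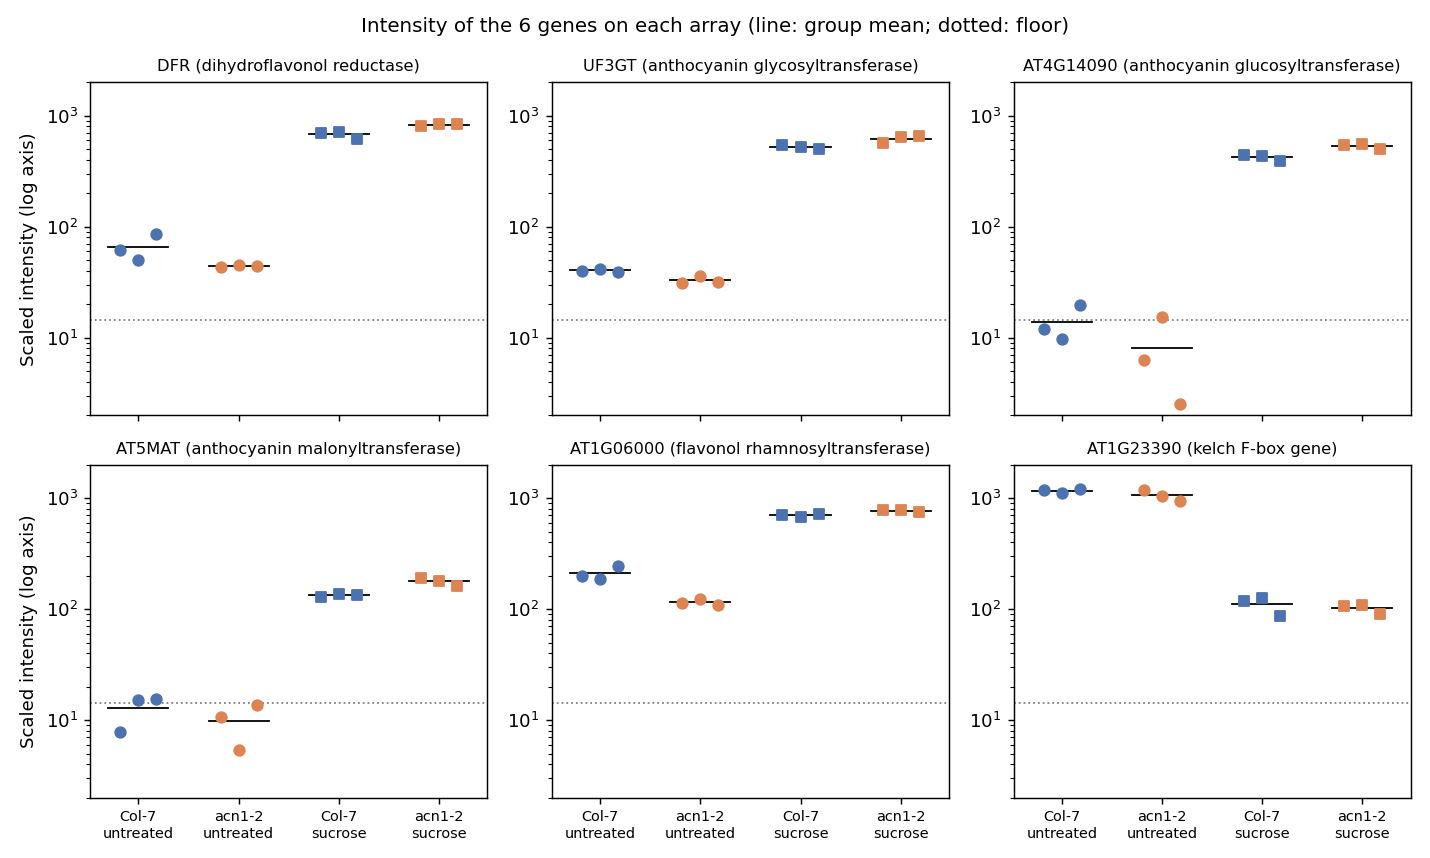
Scaled intensity (log axis) of the 6 genes on each of the 12 arrays, by group. Points are arrays, horizontal lines group means, and the dotted line the floor of 14.4. The 5 enzyme genes lie higher with sucrose and AT1G23390 lies lower, while AT4G14090 and AT5MAT lie near or under the floor without sucrose.

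DFR, dihydroflavonol reductase, makes the first intermediate committed to anthocyanins. The Col-7 untreated arrays read 62.0, 50.4 and 85.4, and the acn1-2 untreated arrays 43.5, 44.9 and 44.6. With sucrose, the Col-7 arrays read 693.5, 717.7 and 623.2, and the acn1-2 arrays 801.2, 840.7 and 837.7. The untreated Col-7 arrays were widely spread, and the acn1-2 arrays lay below all of them without sucrose and above all Col-7 arrays with it. Col-7 averaged 65.9 ± 17.8 untreated and 678 ± 49.1 with sucrose (SD, n = 3). The acn1-2 means were 44.3 ± 0.737 and 827 ± 22.0. The difference with sucrose was 3.39 on the log2 scale in Col-7 (SE 0.15), or 10.5-fold, and 4.22 in acn1-2 (SE 0.15), or 18.6-fold.

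UF3GT, also known as UGT79B1, is an anthocyanin glycosyltransferase that adds a xylose to the sugar already carried by the pigment. It read 40.2, 41.9 and 39.0 in Col-7 untreated and 30.9, 35.8 and 31.6 in acn1-2 untreated. With sucrose it read 547.3, 523.5 and 502.7 in Col-7 and 568.9, 646.0 and 654.7 in acn1-2. The lines did not overlap in either medium, with acn1-2 below Col-7 without sucrose and above it with sucrose. The log2 difference with sucrose was 3.70 in Col-7 and 4.25 in acn1-2 (SE 0.10 each), which is 13.0-fold and 19.0-fold.

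AT4G14090 encodes an anthocyanin glucosyltransferase, which attaches a glucose to the pigment. Without sucrose it read 11.9, 9.8 and 19.6 in Col-7 and 6.3, 15.4 and 2.5 in acn1-2, so 2 of the 3 arrays of each line lay under the floor. With sucrose it read 445.2, 430.6 and 389.7 in Col-7 and 540.3, 551.1 and 501.8 in acn1-2. All acn1-2 arrays were above all Col-7 arrays with sucrose, while the untreated arrays of the lines overlapped. Its log2 differences of 4.72 in Col-7 and 5.17 in acn1-2 rest on the floor. They were 5.00 and 6.41 without it, and 3.97 and 4.64 when a pseudocount replaced it.

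AT5MAT is the anthocyanin malonyltransferase, which adds a malonyl group to the glucose that enzymes such as AT4G14090 put in place. Its untreated arrays read 7.8, 15.2 and 15.4 in Col-7 and 10.8, 5.4 and 13.6 in acn1-2, under the floor on 1 and on all 3 arrays. With sucrose it read 128.3, 137.8 and 135.1 in Col-7 and 192.6, 181.5 and 162.1 in acn1-2. The sucrose arrays of the lines did not overlap. It was 3.16 higher on the log2 scale in Col-7, and at least 12.4-fold higher in acn1-2, where only a bound can be given. These values rest on the floor. With a pseudocount in its place the log2 differences were 2.46 in Col-7 and 3.00 in acn1-2, and with no floor they were 3.45 and 4.27.

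AT1G06000 encodes a flavonol rhamnosyltransferase and so belongs to the flavonol branch. Its Col-7 untreated arrays read 198.2, 187.2 and 247.8 and its acn1-2 untreated arrays 114.1, 122.5 and 110.2. With sucrose it read 706.5, 683.7 and 717.4 in Col-7 and 777.1, 779.9 and 747.8 in acn1-2. The lines were far apart without sucrose and close together with it, though they did not overlap in either medium. The difference with sucrose was 1.75 in Col-7, or 3.35-fold, and 2.73 in acn1-2, or 6.65-fold (log2, SE 0.11 each). It was the smallest of the 6 in size in both lines.

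AT1G23390 encodes a kelch F-box protein, one that directs chalcone synthase to breakdown and so acts against the pathway. It read 1186.9, 1123.8 and 1203.0 in Col-7 untreated and 1184.2, 1051.2 and 948.0 in acn1-2 untreated. With sucrose it read 118.4, 126.1 and 87.2 in Col-7 and 105.9, 109.7 and 91.5 in acn1-2. The lines overlapped in both media. Its log2 difference with sucrose was -3.42 in Col-7 and -3.37 in acn1-2 (SE 0.14 each), so the sucrose level was 9.33% and 9.66% of the untreated level.

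**Figure D2:**
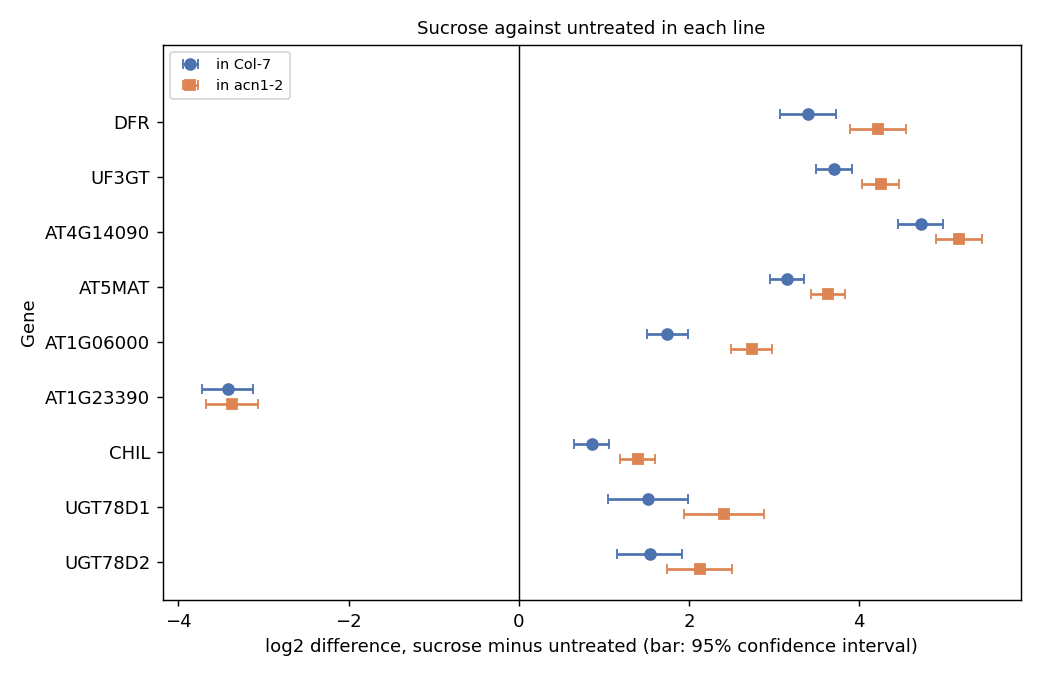
Log2 difference between sucrose and untreated arrays in Col-7 (circles) and acn1-2 (squares) for the 6 genes and for CHIL, UGT78D1 and UGT78D2, with 95% confidence intervals from the fit over all probe sets. The 5 enzyme genes and the 3 other pathway genes lie to the right of 0 and AT1G23390 lies at -3.42 and -3.37. The values of AT4G14090 and AT5MAT rest on untreated arrays at the floor.

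Other measures also moved with the medium. The summed intensity of RCA and PRK was 4497.6 to 7850.4 on the untreated arrays and 2374.3 to 3434.8 on the sucrose arrays. That of the root markers EXPA7, EXPA18 and AT5G66390 was 440.6 to 523.9 untreated and 591.6 to 853.4 with sucrose. Of these, EXPA7 and EXPA18 were called higher in both lines, while AT5G66390 differed by 0.10 in Col-7 and -0.24 in acn1-2 (log2) and was not called. The 3' to 5' ratio of one actin control was 1.81 to 3.42 untreated and 5.32 to 6.93 with sucrose, and that of another actin control, 1.65 to 2.03 and 1.46 to 1.62. That of one GAPDH control was 0.958 to 1.45 untreated and 0.819 to 0.92 with sucrose. The ratios of a second GAPDH control and of both ubiquitin controls overlapped between the media. No measured marker was at 0. The part of these shifts in the sucrose differences was not tested. Of 6 listed reference genes, 2 had a named probe set, GAPC2 and PEX4. They differed by -0.02 and 0.07 between the media in Col-7, and by -0.05 and 0.14 in acn1-2 (log2). Both were most spread in acn1-2 untreated, where GAPC2 ran from 1891.9 to 2955.4 and PEX4 from 186.7 to 256.8.

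Of the 53 further loci of the pathway that were listed, 5 had a probe set naming that gene alone and 3 reached the level for testing. The 3 were CHIL, UGT78D1 and UGT78D2, and all of them rose with sucrose in both lines, against 25.9% of all tested probe sets that rose in Col-7 and 27.4% in acn1-2. CHIL, a chalcone isomerase-like protein that promotes the early steps, rose by 0.85 in Col-7 (SE 0.10, limma adjusted p 1.43e-05) and by 1.39 in acn1-2 (SE 0.10, adjusted p 1.88e-07). UGT78D1, a flavonol rhamnosyltransferase, rose by 1.52 and 2.41 (SE 0.22 each, limma adjusted p 9.59e-05 and 1.77e-06). UGT78D2, a glucosyltransferase that acts on flavonols and anthocyanidins, rose by 1.54 and 2.12 (SE 0.18 each, limma adjusted p 1.66e-05 and 8.92e-07). The median log2 change of the 3 was 1.52 in Col-7 and 2.12 in acn1-2, beside 0.00 and -0.04 over all tested probe sets. These calls were kept under all alternatives run. The list was drawn up with earlier results of these data known, and the 3 share their arrays and a pathway. So nothing is read from their count.

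The other pair was dim throughout. BAN, the anthocyanidin reductase that leads to seed coat tannins, read 1.5 to 2.8 over the 12 arrays. UGT78D3, a flavonol arabinosyltransferase, read 0.5 to 2.4. Both were under the floor on all arrays, so no difference was measured for them. The other loci of the list, among them 8 of phenylpropanoid entry and 20 of regulators, had no probe set under their name in the annotation used here and were not analysed here.

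The next comparison asked whether the lines differed without sucrose. Of the 6 genes 1, AT1G06000, lay past the threshold of an adjusted p under 0.05, against 0.421% of all tested probe sets that were called lower. AT1G06000 may have been listed for this difference, so it is only described: its acn1-2 level was 55.1% of the Col-7 level, a log2 difference of -0.86 (SE 0.11). Of the other 5, limma called 0, and 2 had an unadjusted p under 0.05 and were lower, beside 6.58% of all tested probe sets. These were DFR, at -0.54 (SE 0.15, 95% confidence interval -0.87 to -0.21, limma adjusted p 0.156), and UF3GT, at -0.30 (SE 0.10, interval -0.52 to -0.09, adjusted p 0.206). The arrays of the lines did not overlap for either gene, nor for AT1G06000. Of all tested probe sets, 7.99% had acn1-2 arrays below all Col-7 arrays. The difference of DFR leaned on 1 Col-7 array, the replicate 3 at 85.4. Without it the difference was -0.34, and without Col-7 untreated replicate 2, at 50.4, it was -0.72, with a limma adjusted p of 0.286 and 0.0549.

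AT1G23390 differed by -0.15 (interval -0.45 to 0.16, limma adjusted p 0.646). Without sucrose AT4G14090 was under the floor on 2 of 3 arrays of each line, and AT5MAT on 1 of 3 Col-7 arrays and all 3 of acn1-2, so a difference between the lines was not detectable at this level. The median over the 6 genes, which includes this dim pair, was -0.23, beside 0.03 over all tested probe sets. The genes were chosen with these arrays in view, so nothing is read from this median. CHIL differed by -0.25 (interval -0.46 to -0.04, limma adjusted p 0.275), UGT78D1 by -0.74 (interval -1.21 to -0.26, adjusted p 0.177) and UGT78D2 by -0.27 (interval -0.65 to 0.12, adjusted p 0.5). So of the 3 other pathway genes 0 were called and 2 were lower at an unadjusted p under 0.05, beside 6.58% of all tested probe sets. With 1 array left out UGT78D1 ran from -0.90 to -0.45 and UGT78D2 from -0.47 to -0.088, both smallest without acn1-2 untreated replicate 3, which stands apart.

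With sucrose, 5 of the 6 genes, the enzyme genes, had all 3 acn1-2 arrays above all 3 Col-7 arrays, and AT1G23390 overlapped. Of all tested probe sets, 7.13% had acn1-2 arrays above all Col-7 arrays. Limma called 0 of the 6 genes. Over the whole array it called 0.211% of tested probe sets, and 0% as higher, though with array weights it called 34 probe sets higher. Unadjusted p was under 0.05 for UF3GT, AT4G14090 and AT5MAT, 3 of the 6, and for 2.22% of tested probe sets that were higher. The 6 genes were chosen with these arrays in view. AT4G14090 and AT5MAT passed the filter only through their sucrose arrays, and untreated arrays at the floor enter their pooled spread. For AT5MAT the 3 acn1-2 untreated arrays, all at the floor value, lower it. For AT4G14090 the Col-7 untreated arrays deviated from their group mean by -0.15, -0.15 and 0.30 (log2), more than its sucrose arrays did. So nothing is read from this count, nor from that of genes without overlap. AT5MAT differed most, at 0.42 (SE 0.09, interval 0.22 to 0.62, limma adjusted p 0.165), which is 1.33-fold. With array weights its limma adjusted p was 0.0154, and it ran from there to 1 over the alternatives, with 1 when no floor was set. AT4G14090 differed by 0.33 (interval 0.07 to 0.60, adjusted p 0.829), DFR by 0.29 (interval -0.04 to 0.62, adjusted p 1) and UF3GT by 0.25 (interval 0.03 to 0.46, adjusted p 0.897) in the limma fit. AT1G06000 differed by 0.13 (interval -0.11 to 0.37), and AT1G23390 by -0.10 (interval -0.40 to 0.21, adjusted p 1). The median over the 6 was 0.27, beside 0.00 over all tested probe sets. It includes AT4G14090 and AT5MAT and rests on the arrays that chose the genes, so nothing is read from it.

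**Figure D3:**
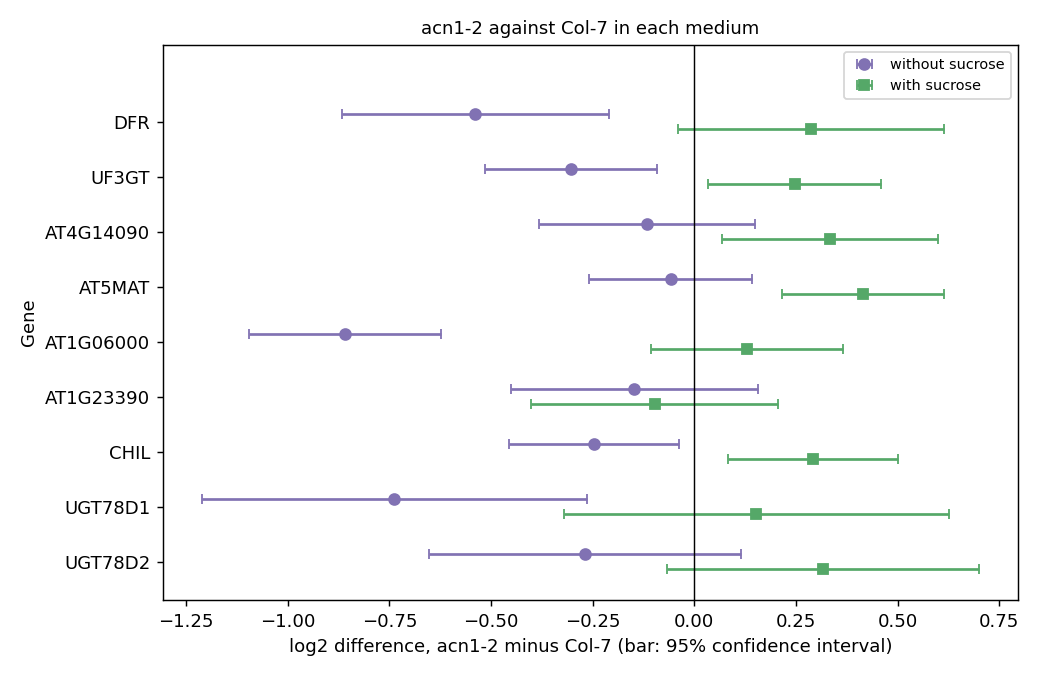
Log2 difference between acn1-2 and Col-7 without sucrose (circles) and with sucrose (squares) for the 6 genes and 3 other pathway genes, with 95% confidence intervals from the fit over all probe sets. AT1G06000 lies farthest left without sucrose, at -0.86, and AT5MAT farthest right with sucrose, at 0.42. The circles of AT4G14090 and AT5MAT rest on arrays at the floor, and AT4G14090 turned to 0.029 without Col-7 untreated replicate 3.

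Of the 3 other pathway genes, CHIL and UGT78D2 had all acn1-2 arrays above all Col-7 arrays with sucrose, as 7.13% of all tested probe sets did. UGT78D1 overlapped. The difference was 0.29 for CHIL (interval 0.08 to 0.50, limma adjusted p 0.709), 0.32 for UGT78D2 (interval -0.07 to 0.70, adjusted p 1) and 0.15 for UGT78D1 (interval -0.32 to 0.63, adjusted p 1). Of these 3, 0 were called and 1 was higher at an unadjusted p under 0.05, beside 2.22% of all tested probe sets. Seed markers also separated the lines: the sum of AT3G01570 and PAP85 was 83.8 to 120.3 in Col-7 and 37.5 to 68.3 in acn1-2 without sucrose, and 126.3 to 194.5 and 65.5 to 84.1 with it. Their part in the differences between the lines was not tested. The summed green markers overlapped between the lines in both media, as did the summed root markers. Some control ratios separated the lines. With sucrose the 3' to 5' ratio of the second actin control was 1.46 to 1.5 in Col-7 and 1.57 to 1.62 in acn1-2. Without sucrose that of the second GAPDH control was 1.02 to 1.05 in Col-7 and 0.925 to 1.01 in acn1-2. The part of RNA quality in the differences between the lines was not tested.

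The last comparison asked whether sucrose acted equally in both lines. The difference of the sucrose effects, acn1-2 less Col-7, had a median of 0.51 over the 6 genes on the log2 scale, beside -0.02 over all tested probe sets. This median rests on the same arrays as the contrasts that chose the genes, so nothing is read from it. AT1G06000 had a value of 0.99 (SE 0.15, interval 0.65 to 1.32), and was 1 of 6 probe sets past the threshold in this direction, 0.0436% of those tested. As it may have been listed for this value, it is a description, and it lay past the threshold without 3 of the 12 arrays and not without the other 9. Of the other 5 genes limma called 0. At an unadjusted p under 0.05 there were 4 of 5, namely DFR, UF3GT, AT4G14090 and AT5MAT, and 4.66% of all tested probe sets with a larger effect in acn1-2. Nothing is read from this count, since the genes were chosen on these arrays and AT4G14090 and AT5MAT passed the filter only through their sucrose arrays.

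DFR had a sucrose effect larger by 0.83 in acn1-2 (SE 0.21, interval 0.36 to 1.29, limma adjusted p 0.277), UF3GT by 0.55 (SE 0.14, interval 0.25 to 0.85, adjusted p 0.267). When 1 array was left out, DFR ran from 0.62 to 1.00 and UF3GT from 0.51 to 0.62. AT5MAT, at 0.47 (interval 0.19 to 0.76, limma adjusted p 0.29), and AT4G14090, at 0.45 (interval 0.07 to 0.82, adjusted p 0.421), had untreated arrays at the floor, which sets part of these values and of their errors. With no floor they were 0.82 and 1.41, with a limma adjusted p of 0.54 and 0.51. AT1G23390 differed by 0.05 (interval -0.38 to 0.48, limma adjusted p 0.951), and its sign changed when some arrays were left out. UGT78D1 stood at 0.89 (interval 0.22 to 1.56, limma adjusted p 0.376), UGT78D2 at 0.59 (interval 0.04 to 1.13, adjusted p 0.464) and CHIL at 0.54 (interval 0.24 to 0.84, adjusted p 0.268). Limma thus called 0 of these 3 other genes. All 3 had an unadjusted p under 0.05, beside 4.66% of all tested probe sets with a larger effect in acn1-2. The 3 share their arrays and a pathway, so nothing is read from this count. UGT78D1 ran from 0.60 to 1.05 with 1 array left out, UGT78D2 from 0.40 to 0.78 and CHIL from 0.48 to 0.60.

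**Figure D4:**
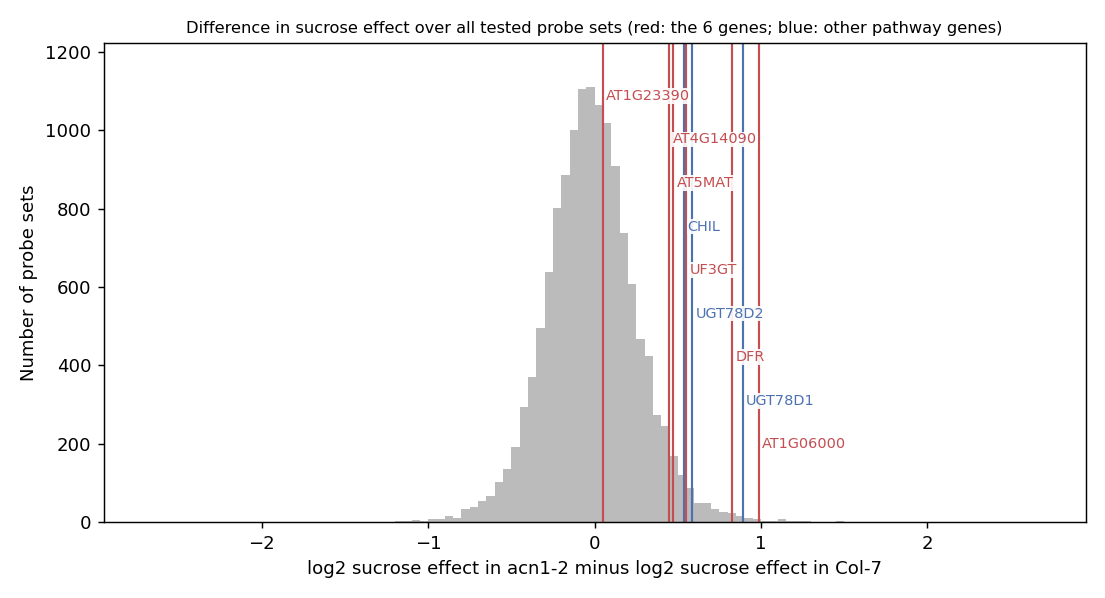
Number of probe sets (bars, 0.05 wide) by how far the log2 sucrose effect of acn1-2 exceeds that of Col-7, over all 13764 tested probe sets, with the 6 genes as red lines and CHIL, UGT78D1 and UGT78D2 as blue lines. AT1G23390 stands near the middle at 0.05, and the other 8 genes stand between 0.45 and 0.99 on the right flank.

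DFR, UF3GT and AT1G06000 had acn1-2 arrays below all Col-7 arrays without sucrose and above all of them with sucrose. So did CHIL among the other pathway genes. Of all tested probe sets, 0.828% had this pattern and 0.792% the opposite one. Genes of a shared pathway are not independent of each other, and the 3 members were listed with these arrays in view, so their number is given without a test.

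Some arrays had most of these genes on the same side of the group mean. On Col-7 untreated replicate 3, 8 of the 9 genes (the 6 and the 3 others) lay above the group mean, by 0.41 for DFR, 0.30 for AT4G14090 and 0.24 for AT1G06000 on the log2 scale, and by 0.41 for UGT78D1 and 0.29 for UGT78D2. UF3GT was the exception, at -0.05. On Col-7 untreated replicates 1 and 2, 1 and 2 of the 9 lay above the mean. All 9 lay above it on acn1-2 sucrose replicate 2, and 4 and 3 on replicates 1 and 3 of that group. The counts were 3, 6 and 1 on the acn1-2 untreated arrays, where AT5MAT was at the floor throughout. On the Col-7 sucrose arrays they were 7, 4 and 4. No share over all tested probe sets is set beside these counts, so they are a description and nothing is read from them. The 3' to 5' ratio of Col-7 untreated replicate 3 was 2.3 for the first actin control above, the lowest of its group, where the other arrays had 2.97 and 3.42. For the other actin control that array had 1.71, beside 1.68 and 1.69. The part of RNA quality in these deviations was not tested.

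**Figure D5:**
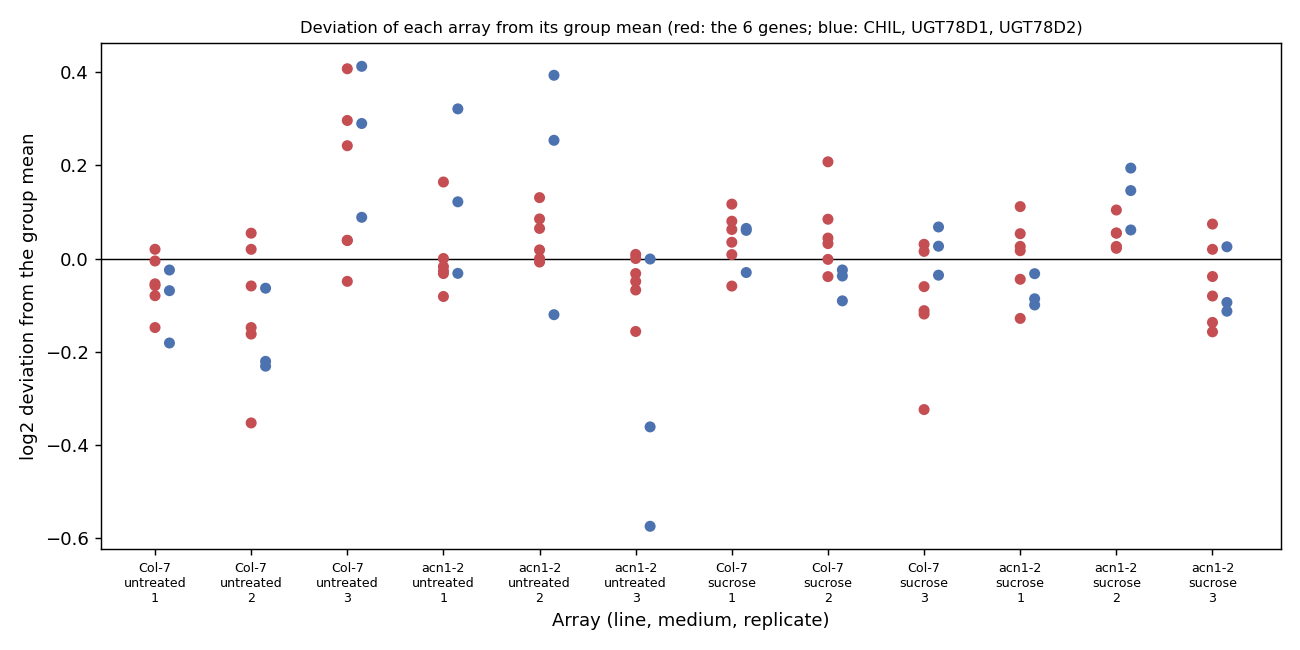
Log2 deviation of each array from the mean of its group of 3, for the 6 genes (red) and for CHIL, UGT78D1 and UGT78D2 (blue). Col-7 untreated replicate 3 has 8 of 9 points above 0, up to 0.41, and acn1-2 sucrose replicate 2 has all 9. The remaining arrays have from 1 to 7.

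Genes with the most similar pattern were looked up by Pearson's r over the 12 arrays among tested probe sets that name 1 gene. The 12 arrays fall into 2 media, which dominate such an r, so r of the deviations from the mean of each medium is given beside it, and both are descriptions. Nearest to the mean standardised profile of DFR, UF3GT, AT4G14090 and AT5MAT were AT5G11770 (r 0.996, and 0.625 within media), AT5G38020 (0.994 and 0.647), AT2G40435 (0.993 and 0.485), AT1G20070 (0.992 and 0.596) and AT4G29700 (0.992 and 0.464). Their log2 differences with sucrose were 0.60 to 1.61 in Col-7 and 0.66 to 1.97 in acn1-2, below those of the 4 anthocyanin genes, since r measures shape and not size. Nearest to AT1G06000 were AT5G02240 (0.994 and 0.928), AT1G67750 (0.994 and 0.927), AT1G24050 (0.991 and 0.892), AT1G29980 (0.991 and 0.884) and PPDK (0.990 and 0.866), the pyruvate orthophosphate dikinase. Nearest to AT1G23390 were AT2G20670 (0.996 and 0.507), AT4G19830 (0.996 and 0.860), AT3G16220 (0.996 and 0.167), AT5G61590 (0.995 and 0.333) and AT4G13530 (0.995 and 0.667).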

How the data were processed

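The deposited values are linear intensities of 22810 probe sets on each array. Their trimmed means show that the authors had scaled all arrays alike. The summarising software and genome build are not given in the sources used here. No coordinates or sequences are reported. Leaving out 64 control probe sets left 22746, of which 13513 named 1 gene. Loci were matched through gene identifiers of the RefSeq table (TAIR10.1). Values were floored at the pooled 25th percentile, and probe sets whose mean reached the 40th (29.1) were tested, which kept 13764. All 6 genes passed, AT4G14090 and AT5MAT only through their sucrose arrays. One limma model of group means (limma 3.58.1, R 4.3.3, eBayes without trend, 8 residual degrees of freedom) gave two-sided tests, Benjamini-Hochberg adjusted over all tested probe sets and called under 0.05. The model was also run on simulated arrays, and the outcome of that run is not reported here. Figures used matplotlib 3.10.9.

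The genes and lists were chosen with earlier results of these data known. Named were the 6 genes, any other pathway locus called between lines or in the interaction, up to 8 per sucrose comparison, and the 5 most similar genes per profile. The alternatives were other scalings (quantile, 75th percentile), filters, floor or pseudocount, variance trend, array weights, only the groups compared, a replicate block, the scanner background, and each array left out. Leaving out both arrays that stand apart was chosen after seeing the data.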

Additional observations from a re-analysis of the deposited data

Results flagged for a closer look

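AT1G06000, the flavonol rhamnosyltransferase gene, had a larger sucrose effect in acn1-2 than in Col-7, by 0.99 on the log2 scale, and this difference between the lines passed the threshold of the fit over all probe sets. The gene may have been listed for this value, so it is no independent support. The adjusted p of 0.0422 in limma became 0.112 with the replicate number as a block, 0.0855 with the scanner background as a covariate and 0.0634 with no filter, and the threshold was also missed without any 1 of 9 of the 12 arrays.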

How the results depend on the processing

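Of 1069 values of single genes under the alternatives, 1033 kept their direction and side of the threshold (or moved by less than the replicate SD), 14 sizes of the sucrose difference moved further, 14 values lost the threshold, 1 gained it and 7 changed sign. The number of the 6 genes past the threshold without sucrose was 1, and 0 with only the groups compared (AT1G06000, adjusted p 0.0885). With sucrose it was 0, and 1 with array weights (AT5MAT). For the unequal sucrose effect it was 1, and 0 with no filter, with the scanner background as a covariate and without the pair of arrays that stand apart. It ran from 0 to 1 with 1 array left out, and the 9 arrays that ended it were all 6 of acn1-2, Col-7 untreated replicate 1 and Col-7 sucrose replicates 1 and 2 (adjusted p of AT1G06000 from 0.0409 to 0.196, value from 0.87 to 1.07). With the replicate number as a block it was 0 (adjusted p 0.112), and over all probe sets the count of the interaction went from 8 to 6. The numbers are not taken as pairs in the main fit. Same-numbered arrays had deviations correlated at -0.095 to 0.139, and 3 of 18 pairs were over 0.1. An array was closest to its own number in 16 of 36 cases. These values do not settle whether the numbers mark pairs. The changes of sign were all near 0. AT4G14090 between lines without sucrose ran from -0.19 to 0.029 with 1 array left out, and AT1G23390 with sucrose from -0.26 to 0.006. For the unequal sucrose effect AT1G23390 ran from -0.11 to 0.15, and was -0.16 with array weights and -0.19 without the pair of arrays that stand apart. Over all probe sets, calls for the interaction were 22 with array weights, 18 with trend and robust moderation and 13 with the stricter filter. Calls between lines with sucrose were 29, and 164 with array weights. The cause of these changes was not tested. Signal near background limits AT4G14090 and AT5MAT without sucrose. UF3GT and DFR were above the floor there but also low. With a pseudocount, the UF3GT line difference without sucrose was -0.22 instead of -0.30, and that of DFR was -0.43 instead of -0.54.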
